A study of Mus musculus with 18 samples.

Results

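Epiblast-like cells (EpiLC) were turned into primordial germ cell-like cells (PGCLC) from Esrrb knockout (KO) and wild type (WT) mouse cells, and for each gene the change over the first 3 days of induction was compared between the genotypes. The measure was a difference of differences, called the interaction: the log2 change from EpiLC to PGCLC day 3 (d3) in KO cells minus the same change in WT cells. A positive interaction means that a gene rose more, or fell less, over the step in KO cells, and a negative one that it rose less or fell more. It was taken from 12 of 18 polyA RNA-seq libraries, 3 in each of 4 groups: KO PGCLC d3, KO EpiLC, WT PGCLC d3 and WT EpiLC. The remaining 6 libraries were PGCLC of a later day (day 6 in the sample descriptions and day 5 elsewhere). They entered the choice of genes tested, the scaling and the spread shared by all groups, but not the difference of differences itself.

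All groups came from SGET mouse embryonic stem cells of B6CBA/129 strain background, a line with Stella and Esg1 reporters, kept on gelatin in 2i and LIF. EpiLC were made on fibronectin with activin A and bFGF and were not sorted. PGCLC were induced from EpiLC with BMP4, LIF, SCF, BMP8a and EGF and were sorted for the SG+ETlow gate, so each step runs from unsorted to sorted cells in both genotypes. The KO libraries came from lines named A5, B1 and A2, and the WT libraries carry numbers only. Nothing in the labels says that WT libraries were separate cultures, so p-values measure the spread between these samples, which may be technical. The part of Esrrb that was deleted is not given. Values of KO libraries are listed in the order A5, B1, A2 and those of WT libraries in the order 1, 2, 3.

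Esrrb encodes an orphan nuclear receptor that binds DNA at an extended half-site and belongs to the transcription factor network of naive pluripotency. EpiLC resemble the formative epiblast, in which naive genes such as Klf4 and Esrrb are low and Fgf5, Otx2, Pou3f1 and the de novo DNA methyltransferases are high. Upon BMP signalling a part of such cells starts the germ cell programme led by Prdm1, Prdm14 and Tfap2c, switches off the epiblast genes and takes up naive genes again.

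Esrrb itself was checked first. It had 745, 499 and 359 counts in KO PGCLC d3 and 29, 18 and 167 counts in KO EpiLC. WT levels of Esrrb were 2596, 3125 and 2691 counts at PGCLC d3 and 127, 113 and 79 counts in EpiLC. The library labelled KO A2 was the highest of all 6 EpiLC libraries, and it is called the EpiLC library labelled KO A2 here. Esrrb RNA was present in every KO library and the deleted part is not given, so these counts do not settle its genotype. Its EpiLC markers (Fgf5, Otx2, Pou3f1 and Dnmt3b) summed to 890 CPM (counts scaled to equal library size), against 2390 and 2801 CPM in the other KO EpiLC libraries and 3544 to 3593 CPM in WT EpiLC. Its 20 fibroblast and mesenchyme markers summed to 7974 CPM, against 838 and 602 CPM in A5 and B1 and 664 to 717 CPM in WT EpiLC, with Lum alone at 0. Its 23 endoderm markers summed to 5129 CPM, against 1129 and 806 CPM in A5 and B1 and 753 to 767 CPM in WT EpiLC, with Apoa1, Hnf4a and Ttr at 0. Its 19 trophoblast markers summed to 1648 CPM, against 311 and 148 CPM in A5 and B1 and 122 to 141 CPM in WT EpiLC, with Elf5 and Tpbpa at 0. These sums lean on a few genes. In means of the 3 KO EpiLC libraries Fn1 had 2065 CPM and Vim 611 CPM, against 401 and 196 CPM in WT EpiLC. Thy1, Dcn and Twist1 of the same list were lower in KO EpiLC (12.7, 2.25 and 5.92 CPM) than in WT EpiLC (27.2, 7.75 and 7.76 CPM). In the endoderm list Sparc had 496 CPM in KO EpiLC, and Gata4 and Gata6 had 2.26 and 3.58 CPM. All these single-gene values are means that include lines A5 and B1. They do not give the level of each gene in the EpiLC library labelled KO A2 alone. Whether cells of other types had a part in the interaction was not tested. In bulk RNA more cells of a type cannot be told apart from more RNA per cell. Results are therefore given with and without this library. At d3 the 5 germ cell markers (Prdm1, Tfap2c, Prdm14, Nanos3 and Dnd1) summed to 364 to 477 CPM in KO and 431 to 453 CPM in WT, so both genotypes carried them at that stage. Library totals ran from 3032965 to 5286330 counts with a median of 4177549.

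**Figure D1:**
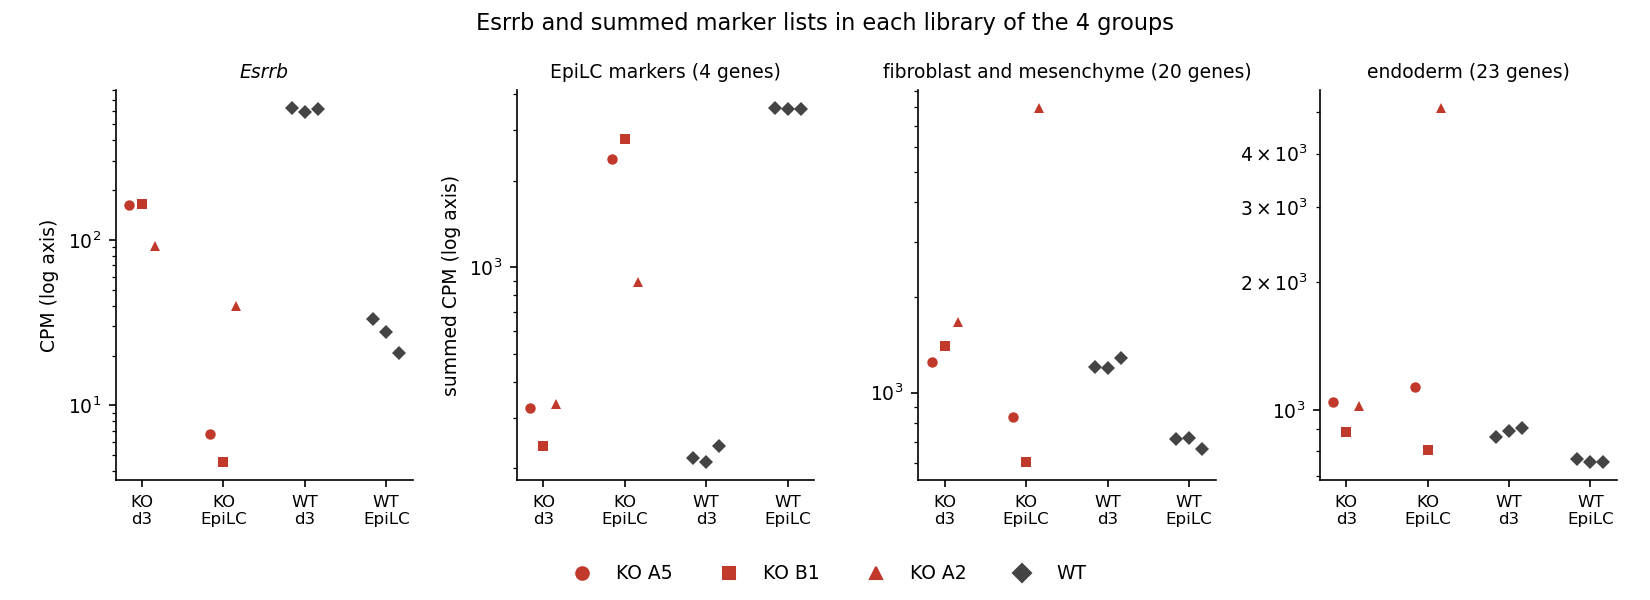
Esrrb and the summed markers of EpiLC, fibroblast and mesenchyme, and endoderm in each of the 12 libraries, in CPM on log axes; red symbols are KO lines A5 (circle), B1 (square) and A2 (triangle), grey diamonds are WT. The EpiLC library labelled KO A2 has the highest Esrrb of the EpiLC libraries, the lowest EpiLC marker sum (890 CPM) and the highest mesenchyme and endoderm sums (7974 and 5129 CPM).

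The first question was how much of the induction step differed between KO and WT. Of 12856 genes tested, 5394 (42%) changed over the step in KO, 20.6% up and 21.4% down, and 7389 (57.5%) in WT, 29% up and 28.5% down. Without the EpiLC library labelled KO A2, 6530 of 13040 genes changed over the step in KO, 3321 up and 3209 down. A change was called at an adjusted p under 0.05 in edgeR's quasi-likelihood test with Benjamini-Hochberg adjustment over all genes tested. The interaction passed the same threshold for 847 genes (6.59%), of which 380 (2.96%) were higher and 467 (3.63%) were lower, while its median over all genes tested was -0.0036. Of the 380 higher genes, 211 had a negative fitted change in both genotypes that was smaller in KO, 139 had a positive change in KO and a negative one in WT, and 30 had a positive change in both that was larger in KO. Of the 467 lower genes, 232 had a positive change in both genotypes that was smaller in KO, 213 had a negative change in KO and a positive one in WT, and 22 had a negative change in both that was larger in KO. Where the signs were opposite, both steps were themselves called for 34 of the 139 and 35 of the 213. Within a stage, KO differed from WT for 1424 genes in EpiLC (11.1%, with 6.93% higher and 4.15% lower) and for 1309 at d3 (10.2%, with 5% higher and 5.18% lower). The EpiLC count depended on the EpiLC library labelled KO A2, and without it was 596 of 13040 genes, 299 higher and 297 lower. The difference between KO and WT was larger at d3 for 474 of the 847 genes and larger in EpiLC for 373 (44.0%), against 52.8% larger in EpiLC over all genes tested. Without that library it was larger in EpiLC for 361 of the 1039 genes then called (34.7%), against 45.8% over all genes tested. All 3 lines lay on the same side of the WT mean step for 847 of 847 genes called, which the call itself favours, against 51.8% of all genes tested. Line A2 was the most extreme line in the direction of the fitted interaction for 566 of the 847 (66.8%), against 55.8% of all genes tested.

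**Figure D2:**
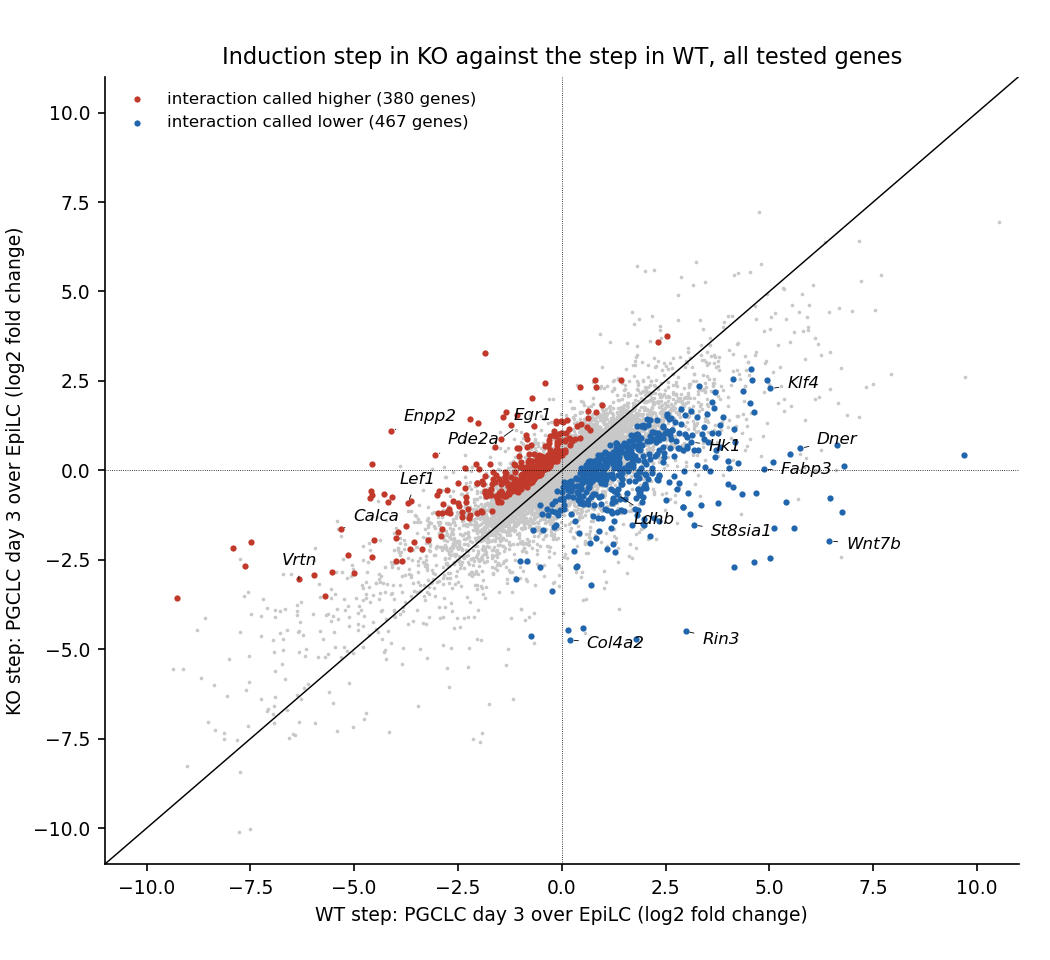
The fitted log2 change from EpiLC to PGCLC d3 in KO (y axis) against that in WT (x axis) for all 12856 genes tested, with the diagonal where both are equal. The 380 genes called higher (red) lie above the diagonal, mostly where the WT change is negative, and the 467 called lower (blue) lie below it, mostly where the WT change is positive.

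The number of calls depended on which libraries and which spread entered. KO EpiLC and KO PGCLC d3 libraries of the same line deviated together (r across genes of 0.208, 0.170 and 0.219), and with KO line as a block 2052 genes were called, 991 higher and 1061 lower, of which 841 were among the 847. Without the EpiLC library labelled KO A2, 1039 of 13040 genes (7.97%) were called, 532 (4.08%) higher and 507 (3.89%) lower. Of these, 701 were called in the same direction with and without it, 82.8% of the 847 and 67.5% of the 1039, and none changed direction. Leaving out 1 WT library gave 393, 381 and 405 calls for EpiLC replicates 1, 2 and 3 and 442, 361 and 380 calls for PGCLC d3 replicates 1, 2 and 3. Leaving out 1 KO library gave 1127, 1527 and 1039 calls for EpiLC lines A5, B1 and A2 and 702, 641 and 609 calls for PGCLC d3 lines A5, B1 and A2. A fit of the 12 libraries alone called 456 of 12518 genes, of which 432 were among the 847. A limma-trend fit on the deposited CPM called 930 genes, of which 298 (32.0%) were higher, against 44.9% higher in the edgeR fit. No gene called in both the edgeR fit and any of these alternatives had opposite signs.

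The genes with the highest interactions were high in WT EpiLC and low in WT PGCLC d3, and KO cells kept more of them at d3. Enpp2 (chr15:54838901-54952892, GRCm38), which encodes the secreted enzyme autotaxin that makes lysophosphatidic acid, had 56.5, 62.5 and 44.1 CPM in KO PGCLC d3 and 26.4, 27.0 and 22.4 CPM in KO EpiLC. WT levels of Enpp2 were 3.14, 3.58 and 4.09 CPM at PGCLC d3 and 59.5, 62.3 and 66.2 CPM in EpiLC. Every KO line rose and every WT library at d3 was far below every WT EpiLC library, and KO PGCLC d3 and WT EpiLC were the only groups that overlapped. The interaction was 5.21 ± 0.29 (log2, SE) with an adjusted p of 3.47e-08, from a step of 1.10 in KO and -4.11 in WT, and it was 5.13 without the EpiLC library labelled KO A2. The same difference was found in the later libraries, with 34.2, 49.3 and 44.6 CPM in KO and 0.804, 0.801 and 2.08 CPM in WT.

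Pde2a, a phosphodiesterase that breaks down cyclic nucleotides, had 28.5, 21.5 and 16.6 CPM in KO PGCLC d3 and 20.8, 9.58 and 18.8 CPM in KO EpiLC. WT levels of Pde2a were 3.62, 3.39 and 4.32 CPM at PGCLC d3 and 34.1, 27.9 and 31.8 CPM in EpiLC. KO libraries of both stages overlapped each other and stood above all WT d3 libraries. The interaction of Pde2a was 3.48 ± 0.41 (adjusted p = 0.000228), or 3.59 without the EpiLC library labelled KO A2. Calca, which encodes calcitonin and its related peptide, fell in both genotypes, to 11.3, 10.9 and 7.64 CPM in KO against 38.7, 41.8 and 12.6 CPM in KO EpiLC, and to 1.69, 1.51 and 1.36 CPM in WT against 66.3, 61.3 and 58.4 CPM in WT EpiLC. Its interaction was 3.69 ± 0.55 (adjusted p = 0.00143), and 3.32 without the EpiLC library labelled KO A2, which was the lowest of the KO EpiLC libraries. Vrtn, known for its link to vertebra number in pigs, had 4.56, 2.98 and 7.64 CPM in KO PGCLC d3 and 40.5, 56.0 and 31.7 CPM in KO EpiLC. WT levels of Vrtn were 0.724, 0.753 and 0.909 CPM at PGCLC d3 and 61.1, 72.4 and 65.7 CPM in EpiLC. It fell in both genotypes and fell less in KO, with an interaction of 3.29 ± 0.49 (adjusted p = 0.0014), or 3.12 without the EpiLC library labelled KO A2.

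Lef1, a transcription factor that carries WNT signals to DNA with beta-catenin, had 29.1, 46.0 and 36.4 CPM in KO PGCLC d3 and 73.4, 85.7 and 47.9 CPM in KO EpiLC. WT levels of Lef1 were 6.28, 5.65 and 7.50 CPM at PGCLC d3 and 84.1, 88.4 and 81.1 CPM in EpiLC. The KO libraries at d3 lay between the WT groups and overlapped neither. Lef1 had an interaction of 2.81 ± 0.38 (adjusted p = 0.00078), or 2.60 without the EpiLC library labelled KO A2. Lef1 was the only one of 13 tested genes of a WNT response list that was called, against 2.96% called higher over all genes. The list's median was 0.47, or 0.55 without that library. Ccnd1, the cell cycle gene for cyclin D1, was called higher as well without that library (1.29, adjusted p = 0.0146), against 0.60 (0.484) with it. Car14, a membrane carbonic anhydrase, had 2.61, 2.32 and 5.86 CPM in KO PGCLC d3 and 3.94, 5.29 and 0.476 CPM in KO EpiLC. WT levels of Car14 were 0.241, 0.377 and 0.455 CPM at PGCLC d3 and 9.96, 8.15 and 9.65 CPM in EpiLC. Of the KO lines only A2 was higher at d3 than in EpiLC. Its interaction was 4.74 ± 0.85 (adjusted p = 0.0047), or 4.24 without the EpiLC library labelled KO A2. Enpp2, Pde2a, Calca, Vrtn, Lef1 and Car14 each kept the call in all 12 fits that left out 1 library.

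Other genes with large positive interactions were close to the detection limit at d3. Rassf9, a Ras-association domain gene, had 4, 5 and 5 counts in KO PGCLC d3 and 0 counts in all 3 WT libraries, at least 5.60-fold higher in KO against a floor of 3 counts over the WT group. In EpiLC Rassf9 had 22, 23 and 25 counts in KO and 32, 26 and 24 counts in WT. Its call (adjusted p = 0.016) held in all 12 fits that left out 1 library. Insc, which orients the mitotic spindle, had 3, 1 and 2 counts in KO and 0 in all WT libraries at d3, at least 2.40-fold higher, and Slc35d3, a sugar-nucleotide transporter gene, had 4, 1 and 0 counts in KO and again 0 in WT, at least 2.00-fold higher. Both were called (adjusted p = 0.0301 and 0.0493). The calls were lost without any 1 of the 6 WT libraries or without d3 line A5, that of Insc also without d3 line A2 and that of Slc35d3 without d3 line B1, with adjusted p up to 0.0752 and 0.244. Tnfrsf8, the receptor CD30, had 5.21, 2.65 and 1.53 CPM in KO and 0, 0.377 and 0.682 CPM in WT at d3, with an interaction of 3.88 (adjusted p = 0.0167) that was lost without WT d3 replicate 2 or d3 line A5 (up to 0.0523). Xist, the RNA that coats the inactive X chromosome, had 5.00, 3.31 and 1.78 CPM in KO PGCLC d3 and 2.08, 10.1 and 5.00 CPM in KO EpiLC. WT levels of Xist were 1.45, 0.753 and 1.59 CPM at PGCLC d3 and 19.4, 24.7 and 20.1 CPM in EpiLC. KO line A5 went up and B1 and A2 went down. The interaction of 3.35 (adjusted p = 0.0175) was lost without the same 2 libraries (up to 0.0590). The strand setting of the counting is not given, so reads of Xist and its antisense partner Tsix cannot be told apart.

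The genes with the lowest interactions were mostly low in EpiLC and rose in WT, and KO cells gained less of them. Fabp3 (chr4:130308595-130315463), a cytoplasmic fatty acid carrier, had 9.78, 10.6 and 9.94 CPM in KO PGCLC d3 and 4.86, 2.77 and 21.9 CPM in KO EpiLC. WT levels of Fabp3 were 91.0, 104 and 92.7 CPM at PGCLC d3 and 3.93, 2.47 and 3.39 CPM in EpiLC. All WT d3 libraries stood above all KO libraries, and the EpiLC library labelled KO A2 was the highest EpiLC library. The interaction was -4.84 ± 0.68 (adjusted p = 0.000982), and -3.49 without that library. St8sia1 (chr6:142821545-142964452), the sialyltransferase that makes ganglioside GD3, had 1.74, 0.992 and 0.510 CPM in KO PGCLC d3 and 3.94, 3.02 and 2.86 CPM in KO EpiLC. WT levels of St8sia1 were 22.9, 18.8 and 24.3 CPM at PGCLC d3 and 2.10, 1.98 and 3.13 CPM in EpiLC. It fell in KO by 1.53 on the log2 scale and rose in WT by 3.18. The interaction of St8sia1 was -4.71 ± 0.47 (adjusted p = 4.31e-05), and it was -4.80 without the EpiLC library labelled KO A2. At the later day it had 2.61, 2.58 and 1.23 CPM in KO and 29.1, 29.0 and 27.0 CPM in WT.

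Enzymes of glucose and lactate metabolism moved in both directions. Ldhb, the lactate dehydrogenase subunit of oxidative tissues, had 37.1, 39.0 and 24.0 CPM in KO PGCLC d3 and 57.2, 67.8 and 34.3 CPM in KO EpiLC. WT levels of Ldhb were 246, 254 and 260.0 CPM at PGCLC d3 and 102, 101 and 98.8 CPM in EpiLC. The genotypes did not overlap at either stage, and the step was -0.67 in KO and 1.33 in WT. Ldhb had an interaction of -2.005 ± 0.30 (adjusted p = 0.00163), or -2.24 without the EpiLC library labelled KO A2. Hk1, a hexokinase that starts glycolysis, had 98.6, 115 and 61.2 CPM in KO PGCLC d3 and 36.8, 36.0 and 85.5 CPM in KO EpiLC. WT levels of Hk1 were 315, 318 and 320.5 CPM at PGCLC d3 and 40.6, 33.4 and 35.5 CPM in EpiLC. It rose in both genotypes and rose less in KO, in which line A2 was lower at d3 than in EpiLC. Hk1 had an interaction of -2.33 ± 0.38 (adjusted p = 0.00253), or -1.80 without the EpiLC library labelled KO A2. Pgm1, a phosphoglucomutase gene, was also called lower (-1.16 ± 0.23, adjusted p = 0.00972). Ldha and Pkm, the lactate dehydrogenase subunit and pyruvate kinase of fast glycolysis, were called higher (0.77 and 0.43, adjusted p = 0.022 and 0.0292), with steps of 0.86 and 0.50 in KO and 0.09 and 0.07 in WT. Of 29 glycolysis genes tested, 2 were called higher and 3 lower, against 2.96% higher and 3.63% lower over all genes, with a median of -0.05 (3 and 3 with 0.10 without the EpiLC library labelled KO A2). None of 36 nuclear-encoded respiratory chain genes was called (4 at an unadjusted p under 0.05, none in DESeq2 or limma, 1 lower with the KO line block, median 0.13). Ldhb, Hk1 and Pgm1 kept the call in all 12 fits that left out 1 library. That of Ldha was lost without WT EpiLC replicate 1 or 3 or WT d3 replicate 2 or 3 (adjusted p up to 0.0594), and that of Pkm without any 1 WT library or d3 line A2 (up to 0.0832).

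**Figure D3:**
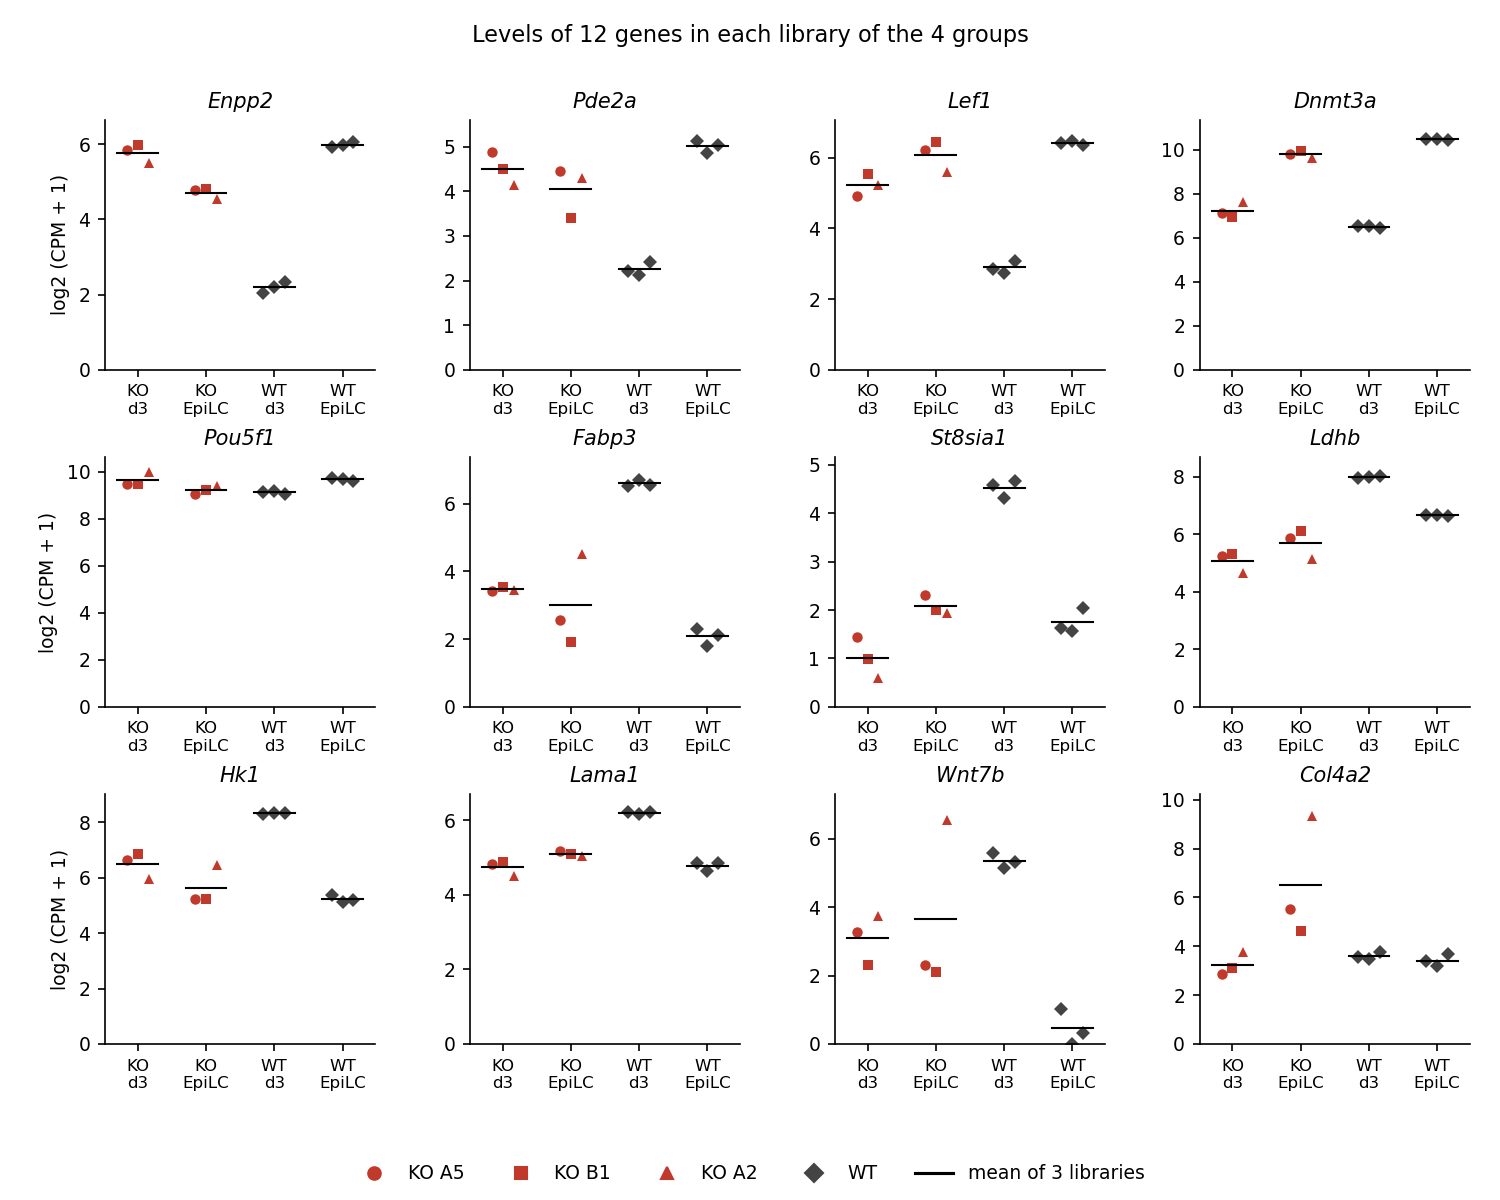
Levels of 12 genes as log2 (CPM + 1) in each library of KO PGCLC d3, KO EpiLC, WT PGCLC d3 and WT EpiLC; red symbols are KO lines A5 (circle), B1 (square) and A2 (triangle), grey diamonds are WT, and bars are means of 3 libraries. Enpp2 and Pde2a drop in WT, while in KO Enpp2 rises in every line and Pde2a rises in lines A5 and B1. Lef1 and Dnmt3a drop in both genotypes and further in WT. Fabp3, St8sia1, Ldhb, Hk1 and Lama1 rise in WT and rise less or not at all in KO. For Wnt7b and Col4a2 the EpiLC library labelled KO A2 stands far above the other libraries of its group.

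Dner, a Notch ligand of neurons, and Stard8, a START domain protein, showed the same direction at lower depth. Dner had 6, 4 and 3 counts in KO PGCLC d3 and 0, 7 and 2 counts in KO EpiLC. WT levels of Dner were 114, 155 and 134 counts at PGCLC d3 and 0, 2 and 4 counts in EpiLC. All WT d3 libraries stood far above the rest, and the groups of KO d3, KO EpiLC and WT EpiLC overlapped. Its interaction was -5.13 ± 1.28 (adjusted p = 0.0272). That call was lost without WT EpiLC replicate 1 or 2, EpiLC line B1 or WT d3 replicate 2 or 3, with adjusted p up to 0.243. Stard8 had 8.69, 4.30 and 5.86 CPM in KO PGCLC d3 and 3.70, 1.51 and 10.95 CPM in KO EpiLC. WT levels of Stard8 were 22.9, 21.3 and 28.0 CPM at PGCLC d3 and 0.262, 0.988 and 0.782 CPM in EpiLC. KO libraries lay above WT in EpiLC and below WT at d3. Its interaction of -4.84 ± 0.93 (adjusted p = 0.00793), or -3.79 without the EpiLC library labelled KO A2, was kept in all 12 fits.

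Promoters were read for the half-site that Esrrb and related receptors bind, written AAGGTCA and searched on both strands in 300 bases, from 250 before to 50 after each RefSeq start (GRCm38.p6). The motif was present in 9 of 394 promoters of genes called higher (2.28%) and 10 of 447 promoters of genes called lower (2.24%), against 379 of 11782 promoters of genes tested (3.22%) and 1550 of 32851 promoters in all (4.72%). Of 114 genes looked up by name, 87 had a promoter in the table and 2 held the motif, Dner and Meg3, which are shown for that reason with the motif in capitals. Dner has it on its own strand in 2 places that do not overlap, beginning 112 and 3 bases before the start, and Meg3 has it once on the opposite strand, as TGACCTT, beginning 141 bases before the start. A match is a description of these letters and not a measured binding site. 
Dner, chr1:84696172-84696471, minus strand: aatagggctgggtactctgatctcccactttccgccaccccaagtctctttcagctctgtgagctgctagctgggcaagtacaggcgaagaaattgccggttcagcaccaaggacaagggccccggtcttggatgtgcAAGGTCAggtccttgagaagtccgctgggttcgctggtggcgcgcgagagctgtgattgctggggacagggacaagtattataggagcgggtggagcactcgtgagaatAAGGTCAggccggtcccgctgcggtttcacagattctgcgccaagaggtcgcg 
Meg3, chr12:109545148-109545447, plus strand: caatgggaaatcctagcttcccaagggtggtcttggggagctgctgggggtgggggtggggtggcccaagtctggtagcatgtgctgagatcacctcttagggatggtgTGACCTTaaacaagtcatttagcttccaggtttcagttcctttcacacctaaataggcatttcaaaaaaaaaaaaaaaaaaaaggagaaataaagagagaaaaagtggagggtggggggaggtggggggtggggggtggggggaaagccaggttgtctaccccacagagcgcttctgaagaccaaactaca

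Several of the most negative interactions were smaller without the EpiLC library labelled KO A2, by amounts that differed between genes. Wnt7b, a WNT ligand, was the single call among 14 WNT ligands and receptors, against 3.63% called lower over all genes. It had 8.69, 3.97 and 12.2 CPM in KO PGCLC d3 and 3.94, 3.28 and 92.9 CPM in KO EpiLC. WT levels of Wnt7b were 46.4, 34.1 and 39.1 CPM at PGCLC d3 and 1.05, 0 and 0.261 CPM in EpiLC. Lines A5 and B1 rose little where WT rose strongly, and line A2 was high already in EpiLC. The interaction of Wnt7b was -8.42 ± 1.64 (adjusted p = 0.00896) with that library and -5.21 ± 0.79 (adjusted p = 0.000831) without it. Rin3, a Rab5 exchange factor, had 0.869, 0.331 and 0.510 CPM in KO PGCLC d3 and 4.40, 2.02 and 36.0 CPM in KO EpiLC. WT levels of Rin3 were 1.93, 3.77 and 5.00 CPM at PGCLC d3 and 0.524, 0 and 0.782 CPM in EpiLC. It fell in KO and rose in WT, in all lines, with an interaction of -7.48 ± 1.57 (adjusted p = 0.0122), or -5.36 without that library. Both calls held in all 12 fits that left out 1 library. Tgm2, a protein-crosslinking transglutaminase, and Tinagl1, a secreted matrix protein, had 97.9 and 105 CPM in the EpiLC library labelled KO A2 and at most 9.49 and 3.70 CPM in the other EpiLC libraries. Their interactions were -5.31 and -6.72 (adjusted p = 0.0201 and 0.0218) with it and -2.96 and -2.93 (0.000622 and 0.00326) without it. Both calls were lost without any 1 of the 3 WT EpiLC libraries (up to 0.0607 and 0.0634).

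Basement membrane genes were the list with the most calls in a single direction. Of 21 tested genes for basement membrane and matrix receptors, 7 were called lower and none higher, with a median of -0.89, against 3.63% called lower and a median of -0.0036 over all genes. Without the EpiLC library labelled KO A2, 8 were called lower and the median was -0.43. Lama1, the laminin alpha chain of the early embryo, had 27.2, 28.5 and 21.7 CPM in KO PGCLC d3 and 35.2, 33.3 and 31.7 CPM in KO EpiLC. WT levels of Lama1 were 73.9, 71.2 and 72.7 CPM at PGCLC d3 and 28.0, 24.0 and 27.6 CPM in EpiLC. WT rose by 1.45 on the log2 scale with no overlap of its groups, and each KO line was lower at d3 than in EpiLC. The Lama1 interaction of -1.83 ± 0.25 (adjusted p = 0.00078) was -1.86 without the EpiLC library labelled KO A2. Itga3, an integrin subunit that binds laminin, had 39.3, 41.4 and 50.5 CPM in KO PGCLC d3 and 191, 156 and 507 CPM in KO EpiLC. WT levels of Itga3 were 103, 112 and 113 CPM at PGCLC d3 and 158, 166 and 151 CPM in EpiLC. It fell in KO, in every line, and its interaction was -2.17 ± 0.45 (adjusted p = 0.0122), or -1.45 without that library. Lama1 and Itga3 kept the call in all 12 fits that left out 1 library. The collagen chains Col4a1 and Col4a2, the linker Nid1, the proteoglycan Hspg2 and the integrin subunit Itgav had interactions of -3.91, -4.94, -3.92, -2.52 and -2.49 with that library and of -1.59, -2.17, -1.38, -1.24 and -1.25 without it. In that library they had 913, 637, 479.8, 1009.5 and 242 CPM, against 90.1, 45.4, 43.3, 198 and 50.2 CPM at most in the other KO EpiLC libraries and 48.0, 11.7, 15.99, 126 and 30.5 CPM at most in WT EpiLC. These 5 calls (adjusted p = 0.0442, 0.0397, 0.0425, 0.0339 and 0.0293) were each lost without any 1 WT library or any 1 KO d3 library, with adjusted p up to 0.0989, and that of Nid1 also with the KO line block (0.0930). Col4a1, Col4a2 and Lama1 were also the 3 of 13 endoderm list genes called, all lower, with a list median of -1.74, or -1.20 without that library.

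Calls that depended on the EpiLC library labelled KO A2 went both ways. Of the 847 genes, 146 were called only with it, 40 higher and 106 lower. The 5 with the lowest interactions were Thbd (thrombomodulin), Ly6a (the surface antigen Sca-1), Serpinb6b (a serine protease inhibitor), Msc (a helix-loop-helix repressor) and Ism2, at -7.46, -7.25, -7.20, -6.85 and -6.67, and without it they had -2.06, -4.50, -4.98, -6.51 and -5.36 (adjusted p = 0.625, 0.41, 0.0799, 0.109 and 0.108). Thbd had 79 counts in that library and at most 1 in every other EpiLC library, and fitted values of genes this close to 0 in a group depend on the prior count. Msc had 0 counts in all KO d3 libraries and 23, 25 and 21 counts in WT d3, at least 19.2-fold lower in KO against a floor of 3 counts over the KO group, and at most 2 counts in any EpiLC library. Besides that library, the calls of 4 of these genes were lost without any 1 WT EpiLC library (Thbd, Ly6a and Serpinb6b; replicates 1 and 3 for Msc), any 1 WT d3 library (Thbd, Ly6a and Msc), d3 line A2 (Thbd, Ly6a and Msc), d3 line A5 (Thbd and Msc), d3 line B1 (Thbd) or EpiLC line B1 (Msc). The 5 with the highest interactions were Tgm3 (an epidermal transglutaminase), Meg3, Cdhr1 (a photoreceptor cadherin), Pnma2 and Ttyh1 (a chloride channel-like membrane protein), at 2.74, 2.13, 1.49, 1.48 and 1.40, and without it 2.59, 2.13, 1.34, 1.32 and 1.08 (adjusted p = 0.0622, 0.0565, 0.0632, 0.0618 and 0.0596). Each of these 5 calls was also lost without any 1 WT library or d3 line B1, and further without EpiLC line A5 (Ttyh1, Tgm3 and Meg3), EpiLC line B1 (Cdhr1), d3 line A5 (Cdhr1 and Tgm3) or d3 line A2 (Ttyh1, Pnma2 and Meg3), with adjusted p up to 0.149.

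Leaving the same library out added 338 calls, 192 higher and 146 lower. The 5 highest were Nlrc4 (an inflammasome sensor), Enox1 (an electron transfer protein), Pdgfc (a PDGF ligand), Vegfc (a lymphatic growth factor) and Dusp27 (a catalytically inactive phosphatase), at 4.06, 3.42, 3.14, 2.77 and 2.70 without it, and 2.28, 2.24, 1.17, 2.30 and 1.32 with it (adjusted p = 0.15, 0.12, 0.615, 0.116 and 0.332). Pdgfc had 5.00, 2.98 and 5.86 CPM in KO PGCLC d3 and 6.71, 3.02 and 47.6 CPM in KO EpiLC. WT levels of Pdgfc were 1.21, 0.188 and 0.682 CPM at PGCLC d3 and 5.77, 5.93 and 7.04 CPM in EpiLC. KO stood above WT at d3, and in EpiLC the library labelled KO A2 alone was far above the rest. The 5 lowest were Trpa1 (an irritant-sensing ion channel), Adcy5 (an adenylate cyclase), Col5a2 (a fibrillar collagen), Faah (which degrades anandamide) and Foxn4 (a retinal transcription factor), at -3.36, -3.19, -3.04, -2.42 and -2.40 without it, and -2.79, -2.63, -5.41, -2.17 and -1.87 with it (adjusted p = 0.25, 0.116, 0.0732, 0.0527 and 0.284). With the KO line block and all libraries in, Col5a2 (adjusted p = 0.00168), Enox1 (0.0121), Faah (0.0133), Foxn4 (0.0214), Dusp27 (0.0314) and Adcy5 (0.0459) were called.

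**Figure D4:**
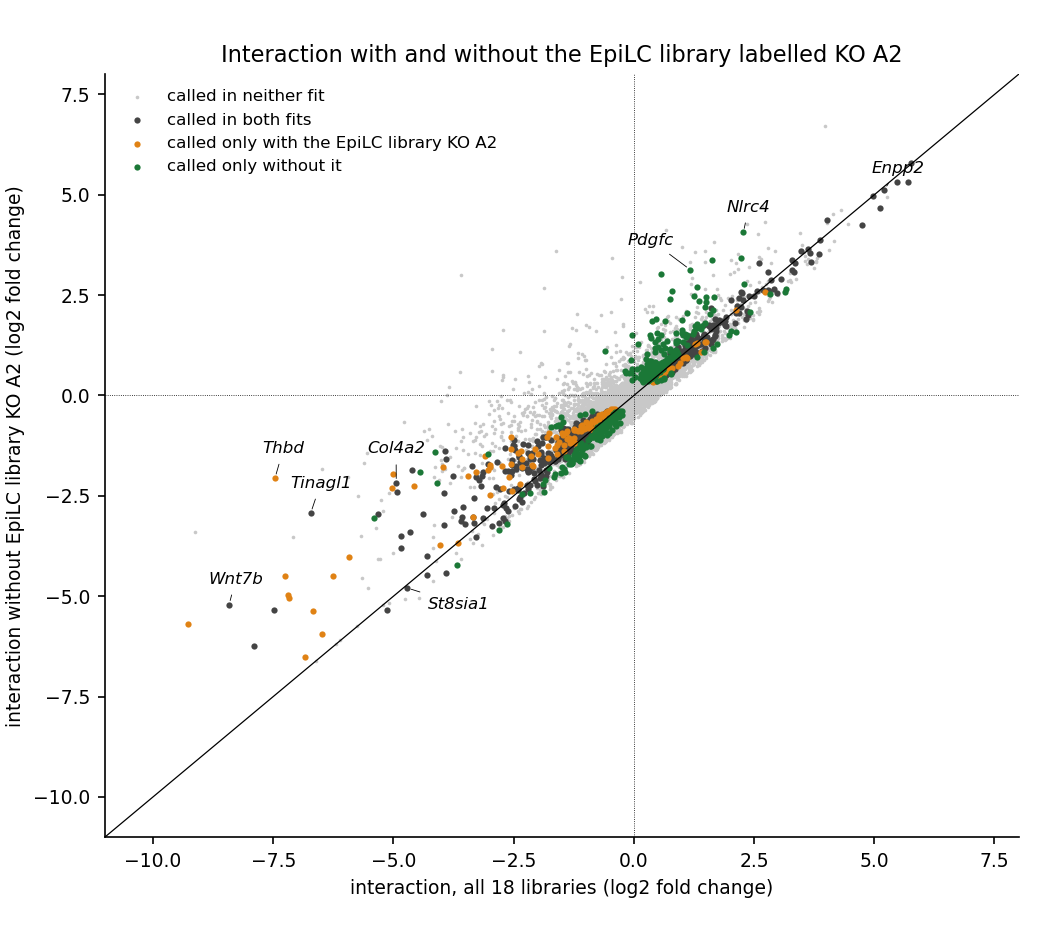
The interaction of every gene without the EpiLC library labelled KO A2 (y axis) against that with all 18 libraries (x axis), both as log2 fold change; dark points were called in both fits (701), orange only with it (146) and green only without it (338). Genes such as Wnt7b, Tinagl1, Thbd and Col4a2 lie above the diagonal at strongly negative values, while Enpp2 and St8sia1 lie on it.

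Pluripotency genes that EpiLC and PGCLC share gave calls in 1 direction. Of 14 tested genes of a shared pluripotency list, 5 were called higher and none lower, with a median of 0.26 (0.56 without the EpiLC library labelled KO A2), against 2.96% called higher over all genes. Pou5f1, which encodes Oct4, had 718, 704 and 1000.5 CPM in KO PGCLC d3 and 532, 601 and 671 CPM in KO EpiLC. WT levels of Pou5f1 were 565, 569 and 534 CPM at PGCLC d3 and 836, 823 and 777 CPM in EpiLC. It rose in KO and fell in WT, so that KO changed from the lower to the higher genotype. Pou5f1 had an interaction of 0.97 ± 0.21 (adjusted p = 0.0147). Foxd3, a forkhead factor of the epiblast, had 38.2, 19.2 and 20.9 CPM in KO PGCLC d3 and 35.9, 39.1 and 37.6 CPM in KO EpiLC. WT levels of Foxd3 were 13.8, 11.1 and 10.9 CPM at PGCLC d3 and 66.6, 54.8 and 58.4 CPM in EpiLC. Its interaction was 1.82 ± 0.34 (adjusted p = 0.00637), and the RNA-binding proteins Lin28a and Lin28b, which block let-7 processing, had 1.27 ± 0.28 and 1.48 ± 0.31 (adjusted p = 0.0161 and 0.0111). Pou5f1, Foxd3, Lin28a and Lin28b kept the call in all 12 fits that left out 1 library. L1td1, an RNA-binding partner of Lin28a, was the fifth (0.84, adjusted p = 0.0402), and its call was lost without any 1 WT library, EpiLC line A5 or d3 line A2 (up to 0.102). Sox2, which pairs with Oct4, went the other way without a call (-0.70, adjusted p = 0.0794), and was called lower with the KO line block (0.0229) and without EpiLC line B1 (-0.86, 0.0189).

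Formative epiblast genes were called in the same direction. Of 23 tested, 4 were called higher (Car14, Lef1, Dnmt3a and Etv5) and none lower, against 2.96% higher and 3.63% lower over all genes. The list's median was 0.78, and without the EpiLC library labelled KO A2 6 were called higher with a median of 0.66. With the KO line block, 7 were called higher and 1 lower. Dnmt3a, a de novo DNA methyltransferase, had 138, 120.1 and 198 CPM in KO PGCLC d3 and 900.0, 972 and 780.0 CPM in KO EpiLC. WT levels of Dnmt3a were 91.99, 90.2 and 84.6 CPM at PGCLC d3 and 1447, 1439.6 and 1391 CPM in EpiLC. It fell in both genotypes and less in KO, which was below WT in EpiLC and above it at d3 in every library. The Dnmt3a interaction was 1.47 ± 0.22 (adjusted p = 0.0014). Etv5, an ETS factor downstream of FGF, had 446, 317 and 323 CPM in KO PGCLC d3 and 231, 191 and 207 CPM in KO EpiLC. WT levels of Etv5 were 343, 303 and 317 CPM at PGCLC d3 and 366, 345 and 339.8 CPM in EpiLC. It was lower in KO EpiLC, and the genotypes overlapped at d3. The Etv5 interaction was 0.91 ± 0.16 (adjusted p = 0.00383). Dnmt3a and Etv5 kept the call in all 12 fits. The classic EpiLC markers did not pass the test, with 1.46 for Dnmt3b (adjusted p = 0.0538; 1.10 and 0.0108 without the EpiLC library labelled KO A2), 1.63 for Fgf5 (0.241), 0.65 for Pou3f1 (0.486) and 0.40 for Otx2 (0.704). Pim2, a kinase gene of the same list, had 1.64 (adjusted p = 0.106) and was called without that library (1.18, 0.00191) and with the KO line block (0.0276).

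Among 15 genes for DNA methylation and its removal, 4 were called higher and 1 lower, against 2.96% and 3.63% over all genes. The list's median was 0.22 (6 and 1 calls with a median of 0.41 without the EpiLC library labelled KO A2). Besides Dnmt3a these were Apobec1, a cytidine deaminase that edits RNA, Uhrf1, which recruits the maintenance methyltransferase, Mbd3, a NuRD subunit, and Gadd45a, a DNA damage response gene, which was the lower one. Apobec1 had 166, 207 and 153 CPM in KO PGCLC d3 and 82.9, 92.8 and 94.5 CPM in KO EpiLC. WT levels of Apobec1 were 62.0, 65.9 and 68.9 CPM at PGCLC d3 and 77.6, 69.7 and 73.0 CPM in EpiLC. It rose in KO alone, and the interaction was 1.12 ± 0.21 (adjusted p = 0.00625). Gadd45a had 27.8, 25.1 and 24.7 CPM in KO PGCLC d3 and 45.6, 46.9 and 75.0 CPM in KO EpiLC. WT levels of Gadd45a were 81.8, 63.1 and 67.3 CPM at PGCLC d3 and 77.6, 73.1 and 67.5 CPM in EpiLC. The Gadd45a interaction was -1.06 ± 0.24 (adjusted p = 0.0157). Apobec1 and Gadd45a kept the call in all 12 fits. Uhrf1 and Mbd3 had 0.50 and 0.52 (adjusted p = 0.0339 and 0.0333). Their calls were lost without any 1 WT library or d3 line A2 for Uhrf1 (up to 0.0904), and without any 1 WT EpiLC library, WT d3 replicate 2 or 3, EpiLC line A5 or d3 line A5 or A2 for Mbd3 (up to 0.0859). Tet1, a 5-methylcytosine oxidase, had 0.22 (adjusted p = 0.675) and was called only without the EpiLC library labelled KO A2 (0.64, adjusted p = 0.0129).

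With all libraries the interaction passed the test for none of the core germ cell factors Prdm1, Prdm14, Tfap2c and Nanos3. Prdm1 had 74.9, 69.1 and 48.7 CPM in KO PGCLC d3 and 4.17, 4.03 and 13.1 CPM in KO EpiLC. WT levels of Prdm1 were 43.5, 34.6 and 48.0 CPM at PGCLC d3 and 3.67, 3.21 and 2.87 CPM in EpiLC. Every KO library was above every WT library at both stages. Its interaction was -0.51 (95% interval -1.53 to 0.52) with all libraries and 0.29 (-0.52 to 1.09) without the EpiLC library labelled KO A2. Prdm14 had 63.0, 69.1 and 65.2 CPM in KO and 67.6, 68.2 and 61.1 CPM in WT at d3, overlapping, with an interaction of -0.93 (-2.27 to 0.41), or 0.05 (-1.38 to 1.47) without that library. Tfap2c had 249, 289.8 and 214 CPM in KO and 310.0, 303 and 318 CPM in WT at d3, with an interaction of -1.07 (-2.33 to 0.18), or 0.18 (-0.46 to 0.81) without that library. Without EpiLC line B1, Tfap2c was called lower (-1.51, adjusted p = 0.0378). The sign of all 3 turned with that library, and without it the intervals of Prdm1 and Prdm14 still reach past 1 log2 unit. Nanos3, which protects migrating germ cells by repressing mRNAs, had 46, 25 and 56 counts in KO and 11, 9 and 7 counts in WT at d3, with 1, 4 and 5 counts in KO EpiLC and 0 in all 3 WT EpiLC libraries, so its fitted interaction of -2.39 (adjusted p = 0.278) depends on a group at 0 and on the prior count. Of 19 genes for germ cell specification, 3 were called higher and none lower, against 2.96% and 3.63% over all genes. Their median was -0.51, or 0.05 with 2 called without the EpiLC library labelled KO A2. Ifitm1, an interferon-induced membrane protein of nascent germ cells, had 290.2, 229 and 284 CPM in KO PGCLC d3 and 22.7, 12.6 and 23.8 CPM in KO EpiLC. WT levels of Ifitm1 were 221, 237 and 210.5 CPM at PGCLC d3 and 45.9, 34.6 and 34.4 CPM in EpiLC. The genotypes overlapped at d3 and KO was lower in EpiLC. The interaction of 1.22 ± 0.24 (adjusted p = 0.00924) was kept in all 12 fits, although reads of near-identical Ifitm copies may be shared. Mycn, a Myc family factor, and Tdrd12, a piRNA pathway gene, had 1.31 and 0.95 (adjusted p = 0.0213 and 0.0361), with KO below WT in every EpiLC library. Their calls were lost without WT EpiLC replicate 1 or 2 or WT d3 replicate 2 or 3 for Mycn (up to 0.0588), and without any 1 WT library, the EpiLC library labelled KO A2 or d3 line A5 for Tdrd12 (up to 0.0825). The sort itself selected cells by reporters of Dppa3 and Dppa5a, so neither gene is read on its own. Dppa3 is among the 19 genes here and Dppa5a among the 14 shared pluripotency genes, so both enter those medians. Neither was called (0.26 and -0.64, adjusted p = 0.765 and 0.257).

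The 24 naive pluripotency genes had positive median steps in both genotypes, 1.89 in KO and 2.62 in WT. Klf4 alone was called, and lower, against 3.63% called lower over all genes. The list median was -0.64, and without the EpiLC library labelled KO A2 there was no call and a median of 0.06. At an unadjusted p under 0.05 there were 8 genes with all libraries, DESeq2 called 2 lower, limma 1 lower, and the KO line block 3 higher and 4 lower. Klf4 had 29.5, 32.4 and 46.1 CPM in KO PGCLC d3 and 4.17, 3.28 and 14.5 CPM in KO EpiLC. WT levels of Klf4 were 152, 128 and 123 CPM at PGCLC d3 and 3.93, 5.44 and 2.87 CPM in EpiLC. KO was below WT at d3 in every library, and the genotypes overlapped in EpiLC. The Klf4 interaction of -2.74 (adjusted p = 0.0236) became -1.76 (0.124) without the EpiLC library labelled KO A2. The call was also lost without WT EpiLC replicate 1 or 3 or WT d3 replicate 1. Nanog, the homeobox factor of the same network, had 515, 378 and 519 CPM in KO and 829.8, 848 and 822 CPM in WT at d3, and an interaction of -0.98 (95% interval -2.09 to 0.13), or 0.05 (-0.50 to 0.60) without that library and -1.36 without EpiLC line B1, where it was called lower (adjusted p = 0.0447). Tfcp2l1, a partner of Esrrb in that network, had 115, 129 and 247 CPM in KO and 418, 413 and 436 CPM in WT at d3, and an interaction of -2.56 (adjusted p = 0.0806), or -0.74 (0.515) without that library, and was called lower with the KO line block (0.0206) and without EpiLC line A5 or B1 (-2.98 and -3.03, adjusted p = 0.0331 and 0.0168). Esrrb itself had -1.45 ± 0.67 (adjusted p = 0.2), or 0.14 ± 0.43 (95% interval -0.78 to 1.05) without that library, and was called lower without EpiLC line B1 (-1.89, adjusted p = 0.0429).

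Lists of genes that respond to the added growth factors were read next, each to be set beside 2.96% called higher and 3.63% lower over all genes. Of 16 LIF and STAT3 response genes, 3 were called lower (Klf4, Socs3 and Cish) and none higher, against 3.63% lower and 2.96% higher over all genes. Their median was -1.13 (-0.32 without the EpiLC library labelled KO A2, with Cish, Junb and Socs3 called lower), and 1 was called higher and 5 lower with the KO line block. Socs3 and Cish, feedback inhibitors of cytokine receptors, were higher in KO EpiLC (14.4, 10.1 and 31.7 CPM for Socs3 and 3.70, 3.02 and 2.62 CPM for Cish) than in WT EpiLC (4.98, 5.44 and 6.52 CPM and 1.83, 1.98 and 2.35 CPM), with no overlap. At d3 Socs3 overlapped between the genotypes (137, 159 and 106 CPM in KO, 139.8, 124 and 135 CPM in WT). Their interactions were -1.72 and -1.27 (adjusted p = 0.0263 and 0.0414), that of Socs3 -1.11 without the EpiLC library labelled KO A2, and both were lost without any 1 WT library, that of Cish also without EpiLC line A5 or d3 line A5 or B1 (up to 0.0750 and 0.104). Of 16 BMP response genes, only Id4, an inhibitor of helix-loop-helix factors, was called with all libraries (-2.06, adjusted p = 0.0388), with a list median of -1.03, or -0.24 without the EpiLC library labelled KO A2, and the call was lost without any 1 WT library, EpiLC line B1 or d3 line A5 or B1 (up to 0.103). Id3, of the same gene family, went the other way (1.50, adjusted p = 0.107) and was called higher without the EpiLC library labelled KO A2 (2.46, 0.00339). DESeq2 called 4 of the 16 lower and limma none, and 2 were called lower with the KO line block. Of 15 Nodal and activin genes, Foxh1, the cofactor of SMAD proteins, and Gdf3, a Nodal-like ligand, were called higher (1.08 ± 0.19 and 0.75 ± 0.16, adjusted p = 0.00467 and 0.011), and Pcsk6, the convertase that activates Nodal, lower (-2.09 ± 0.36, adjusted p = 0.00339). Pcsk6 had 28.7, 31.4 and 38.7 CPM in KO PGCLC d3 and 14.6, 9.33 and 27.6 CPM in KO EpiLC. WT levels of Pcsk6 were 98.3, 93.8 and 94.8 CPM at PGCLC d3 and 10.7, 13.1 and 11.2 CPM in EpiLC, and WT rose further. These 3 calls held in all 12 fits, and the list median was -0.22, or 0.60 with 4 higher and 2 lower calls without the EpiLC library labelled KO A2. Nodal itself had 1.50 (adjusted p = 0.127) and was called higher without that library (2.33, adjusted p = 0.00322) and with the KO line block (0.00756). Of 19 FGF and ERK response genes, Etv5 and Egr1 were called higher and none lower, against 2.96% higher and 3.63% lower over all genes. Their median was 0.25, and without that library 5 were called higher and 1 lower. Egr1, an immediate early factor, had 133, 181 and 222 CPM in KO PGCLC d3 and 132, 98.8 and 60.0 CPM in KO EpiLC. WT levels of Egr1 were 43.7, 45.9 and 40.0 CPM at PGCLC d3 and 160.4, 117 and 82.7 CPM in EpiLC. All KO d3 libraries stood above all WT d3 libraries, and the genotypes overlapped in EpiLC. The interaction of 2.35 ± 0.38 (adjusted p = 0.00237) held in all 12 fits. Egr1 is also induced by handling of cells, and of 21 dissociation stress genes it was the one called higher, with 2 lower (Btg2 and Socs3) and a median of -0.27 (2 higher and 3 lower with -0.03 without the EpiLC library labelled KO A2).

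**Figure D5:**
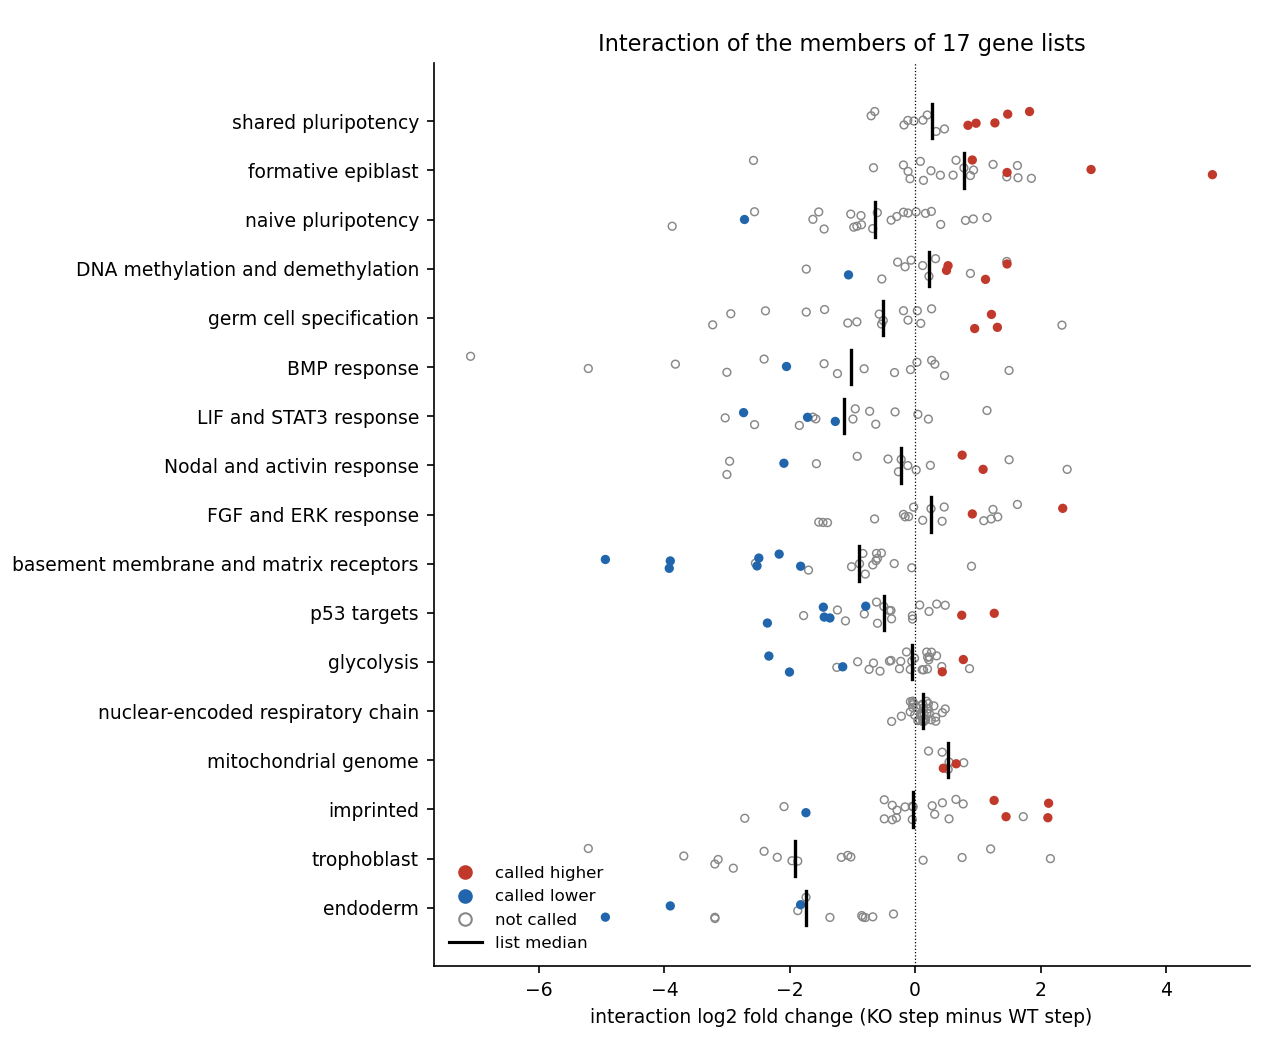
The interaction (log2 fold change, KO step minus WT step) of each tested member of 17 gene lists; filled red points were called higher, filled blue points called lower, open points were not called, and the bar is the list median. The formative epiblast list has its median at 0.78 with 4 higher calls, while the basement membrane list has 7 lower calls and a median of -0.89.

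Targets of p53 gave calls in both directions. Of 23 tested, 5 were called lower and 2 higher, against 3.63% and 2.96% over all genes. Their median was -0.50 (6 and 2 calls with -0.32 without the EpiLC library labelled KO A2), and 9 were called lower and 3 higher with the KO line block. Perp, a desmosomal protein, had 26.1, 20.8 and 38.5 CPM in KO PGCLC d3 and 25.2, 25.5 and 73.1 CPM in KO EpiLC. WT levels of Perp were 36.7, 37.8 and 35.9 CPM at PGCLC d3 and 8.91, 9.64 and 12.5 CPM in EpiLC. KO was above WT in EpiLC in every library, and the genotypes overlapped at d3. Perp had an interaction of -2.36 ± 0.48 (adjusted p = 0.0106), or -1.65 without that library. Btg2, an antiproliferative gene, had 47.0, 68.3 and 116 CPM in KO EpiLC against 27.8, 27.2 and 26.9 CPM in WT EpiLC and overlapped at d3, with an interaction of -1.45 ± 0.33 (adjusted p = 0.0175), or -1.03 without that library. Both calls held in all 12 fits. Cdkn1a, the cell cycle inhibitor p21, Mdm2, the ubiquitin ligase of p53, and Ei24 had -1.36, -1.46 and -0.79 (adjusted p = 0.0325, 0.0373 and 0.02) with that library and -0.82, -0.80 and -0.58 without it. Cdkn1a and Mdm2 were lost without any 1 WT library or d3 line A5 or A2, Mdm2 also without d3 line B1, and Ei24 without WT EpiLC replicate 1 or WT d3 replicate 3 (up to 0.0778, 0.0887 and 0.0582). Pmaip1 and Sesn2, a death-promoting and a stress-response gene, were the higher ones (1.26 and 0.74, adjusted p = 0.0369 and 0.0217), and they were lost without any 1 WT library or d3 line A2 for Pmaip1 and without WT EpiLC replicate 2 or WT d3 replicate 1 or 3 for Sesn2 (up to 0.0849 and 0.0636). None of 29 proliferation genes was called (7 at an unadjusted p under 0.05, 1 higher in DESeq2, none in limma, 6 higher with the KO line block, median 0.26).

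Of 24 imprinted genes tested, 4 were called higher and 1 lower, against 2.96% and 3.63% over all genes, with a median of -0.04. Without the EpiLC library labelled KO A2, 5 were called higher and 2 lower, with a median of 0.24. Peg3, a paternally expressed zinc finger gene, had 873, 832 and 1132 CPM in KO PGCLC d3 and 431, 401 and 2024 CPM in KO EpiLC. WT levels of Peg3 were 355, 331 and 351 CPM at PGCLC d3 and 573, 566 and 499 CPM in EpiLC. Every KO library stood above every WT library at d3, and in EpiLC that library alone stood above WT. The Peg3 interaction was 0.65 (adjusted p = 0.544) with that library and 1.85 (1.79e-05) without it. Snrpn, a splicing protein gene, and Grb10, a growth-restraining adaptor gene, had 0.77 and -0.29 (adjusted p = 0.0535 and 0.774) with that library and were called without it (0.52 and -0.69, adjusted p = 0.00464 and 0.0235). Meg3, a maternally expressed long non-coding RNA whose promoter is printed above, had 153, 195 and 317 CPM in KO PGCLC d3 and 929.9, 1468 and 1193 CPM in KO EpiLC. WT levels of Meg3 were 60.1, 65.7 and 72.7 CPM at PGCLC d3 and 1622, 1691 and 1384 CPM in EpiLC. It fell in both genotypes and less in KO, with every KO library above every WT library at d3. The Meg3 interaction was 2.13 (adjusted p = 0.0426), or 2.13 (adjusted p = 0.0565) without the EpiLC library labelled KO A2. Dlk1, the paternally expressed gene beside Meg3, had 9, 4 and 7 counts in KO and 1, 2 and 4 counts in WT at d3, with 2.12 (adjusted p = 0.0149), lost without WT d3 replicate 1 or 2 or d3 line A5 (up to 0.0706). Mest, a paternally expressed hydrolase-like gene, had 80.6, 101 and 117 CPM in KO PGCLC d3 and 381, 415 and 363 CPM in KO EpiLC. WT levels of Mest were 42.5, 42.7 and 46.8 CPM at PGCLC d3 and 377, 421 and 431 CPM in EpiLC. The genotypes overlapped in EpiLC and not at d3. Mest had an interaction of 1.26 ± 0.28 (adjusted p = 0.0163). Sgce, a sarcoglycan gene, was the lower one (-1.74 ± 0.37, adjusted p = 0.0126), and both Mest and Sgce kept the call in all 12 fits. Nespas, antisense to Gnas, had 1.45 (adjusted p = 0.043), which was lost without any 1 WT library, EpiLC line A5 or B1 or d3 line A5 or A2 (up to 0.112), and its reads cannot be told apart from those of Gnas. Positive and negative interactions were spread over the genome, with chromosome medians from -0.09 to 0.08.

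Lists of other cell types and of further processes gave few calls, to be set beside 2.96% called higher and 3.63% lower over all genes. Of 16 trophoblast genes none was called (6 at an unadjusted p under 0.05, 3 lower in DESeq2, none in limma, 1 lower with the KO line block), with a median of -1.92, or -0.54 without the EpiLC library labelled KO A2, whose summed trophoblast markers are given above. Of 14 fibroblast and mesenchyme genes Tagln, an actin-binding protein, was called lower (-3.96, adjusted p = 0.0244; -2.43 without that library), and it was lost without any 1 WT EpiLC library, WT d3 replicate 2 or 3 or d3 line A2 (up to 0.0719). The median of this list was -0.81, or -0.08 without that library, where Thy1 (a surface glycoprotein) and Vim (vimentin) were called higher (1.51 and 1.11, adjusted p = 0.0158 and 0.0129) and Tagln and Col5a2 lower. With that library Thy1 and Vim had 1.98 and -0.60 (adjusted p = 0.0809 and 0.7). Of 12 neural ectoderm genes 2 were called lower, Dner and Sox21, a SOX factor of neural progenitors, which had 3, 2 and 1 counts in KO and 30, 27 and 24 counts in WT at d3 and an interaction of -3.57 ± 0.71 (adjusted p = 0.00896) kept in all 12 fits. Without the EpiLC library labelled KO A2, 4 neural ectoderm genes were called lower. Of 21 epithelial adhesion genes, the tight junction gene Tjp3 and the desmosomal cadherin Dsg2 were called lower (-1.51 ± 0.25 and -0.99 ± 0.24, adjusted p = 0.00279 and 0.0262). Tjp3 held in all 12 fits, and Dsg2 was lost without any 1 WT EpiLC library, WT d3 replicate 2 or 3 or d3 line A5 or B1 (up to 0.0738). Tdrd7, of the late germ cell list (0 higher and 1 lower of 21, median -0.05), had -1.99 (adjusted p = 0.0399), or -1.45 (0.0927) without the EpiLC library labelled KO A2. It was lost also without any 1 WT library or d3 line A5 or A2 (up to 0.108). The mitochondrial genes mt-Nd1 and mt-Co1, 2 of 7 tested, were called higher (0.65 and 0.45, adjusted p = 0.0297 and 0.043, list median 0.53). DESeq2 called 4 of the 7 higher, limma 1, the KO line block 6, and the fit without the EpiLC library labelled KO A2 1. Their calls were lost without WT EpiLC replicate 2 or 3, any 1 WT d3 library or d3 line A2 for mt-Nd1 (up to 0.0755), and without any 1 WT library, EpiLC line B1, the EpiLC library labelled KO A2 or d3 line A5 or B1 for mt-Co1 (up to 0.106). Ddx58 was the single call of 22 interferon-stimulated genes (median -0.15), and it was higher (1.47, adjusted p = 0.036). Its call was lost without any 1 WT EpiLC library, WT d3 replicate 2 or 3 or d3 line A5 or B1 (up to 0.0935). None of 10 gastrulation mesoderm genes was called, in edgeR, DESeq2 or limma, and 0 passed an unadjusted p under 0.05.

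The later PGCLC libraries, which did not define the interaction, were set beside it. KO differed from WT there for 2244 of 12856 genes, 1264 higher (9.83%) and 980 lower (7.62%). Of the 380 genes called higher in the interaction, 199 were higher in late KO cells (52.4%) and 2 were lower, and of the 467 called lower, 232 were lower (49.7%) and 2 were higher. Those shares were 52.6% of 340 and 54.8% of 361 for the genes called with and without the EpiLC library labelled KO A2. The late libraries came from the same KO lines and entered the same spread estimate, so they are other samples of the same lines and not an independent experiment.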

How the data were processed

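PolyA RNA was extracted with PicoPure and made into libraries with NEBNext Ultra II Directional, per the labels' protocols. The values analysed were raw read counts per Ensembl gene that the authors deposited, from reads trimmed with Trim Galore 0.4.3.1, with genome builds mm10 and GRCm38.p4, per the submitters' processing notes. Which aligner, counter, annotation and strand setting were used is not given in the sources used here. A table of CPM values deposited by the authors served in 1 alternative (limma-trend on log2 of CPM plus 1).

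Of 25965 rows per library, 56 without a gene ID (0.0559 to 0.0828% of counts) were left out. Genes passing edgeR's filterByExpr were scaled with TMM factors (0.964 to 1.04 in the 18 libraries) and fitted with edgeR 4.0.16 (robust quasi-likelihood, R 4.3.3) to the means of 6 groups of 18 libraries. The interaction contrast was tested 2-sided, Benjamini-Hochberg adjusted over all genes tested, with a threshold of 0.05. The SE is the absolute log2 fold change over the root of F, and CPM printed are TMM-adjusted. The common dispersion was 0.0283. A prior count of 2 entered the log2 CPM of line steps. Floors and counts cover counting error only.

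Alternatives were RLE size factors, no filter, DESeq2 1.42.0, limma 3.58.1, the 12 libraries alone, line A2 left out, each library left out, a minimum fold change, and replicate blocks. Pairing was checked by correlating deviations from group means: r was 0.208, 0.170 and 0.219 for KO libraries of the same line, and -0.244 to 0.0936 for different lines. KO libraries of the same line thus deviated together, though weakly, and the cause was not tested. The fit behind the printed interactions had no line block. The procedure was also run on simulated counts with known changes in KO PGCLC d3 alone. That simulation held no KO line effect and no outlying library, so it does not cover these features of the data.

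Members and gene lists were chosen with earlier results of these data known. Genes were named by rule: the 10 highest and 10 lowest interactions called with and without the EpiLC library labelled KO A2 with at least 5 CPM in the highest group, the 5 highest and 5 lowest called only with or only without it, up to 4 members of each list by size, and a fixed set. Named outside that rule, after their values were seen, were L1td1, Etv5, Pim2, Uhrf1, Mbd3, Gadd45a, Tet1, Ifitm1, Mycn, Tdrd12, Ldha, Pkm, Cdkn1a, Ei24, Pmaip1, Sesn2, Lama1, Itgav, Itga3, Hspg2, Foxh1, Gdf3, Nodal, Cish, Mest, Nespas, Sgce, Id4, mt-Co1, Ddx58, Dsg2, Id3, Ccnd1, Peg3, Snrpn, Grb10, Thy1 and Vim. Also outside it, Fn1, Dcn, Twist1, Sparc and Gata4 were named as members of marker lists, and Dppa3 and Dppa5a as genes of the sort reporters. The late comparison was also chosen then. Results of a few further genes are not reported here. Gene positions are GENCODE M21 (GRCm38), promoters RefSeq GRCm38.p6, and 25012 of 25909 IDs had a position.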

Additional observations from a re-analysis of the deposited data

Results flagged for a closer look

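The change over the induction step differed between KO and WT by a test of the difference itself for 847 genes, and 82 of them are named in the results.

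For 36 of these 82 the call held in each of the 12 fits that left out 1 library. The positive interactions (log2, KO step minus WT step) were 5.76 for Rassf9, 5.21 for Enpp2, 4.74 for Car14, 3.69 for Calca, 3.48 for Pde2a, 3.29 for Vrtn, 2.81 for Lef1, 2.35 for Egr1, 1.82 for Foxd3 and 1.48 for Lin28b. Next came 1.47 for Dnmt3a, 1.27 for Lin28a, 1.26 for Mest, 1.22 for Ifitm1, 1.12 for Apobec1, 1.08 for Foxh1, 0.97 for Pou5f1, 0.91 for Etv5 and 0.75 for Gdf3. The negative ones were -8.42 for Wnt7b, -7.48 for Rin3, -4.84 for Fabp3, -4.84 for Stard8, -4.71 for St8sia1, -3.57 for Sox21, -2.36 for Perp, -2.33 for Hk1, -2.17 for Itga3 and -2.09 for Pcsk6. Next came -2.005 for Ldhb, -1.83 for Lama1, -1.74 for Sgce, -1.51 for Tjp3, -1.45 for Btg2, -1.16 for Pgm1 and -1.06 for Gadd45a.

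The calls of the other genes were lost without at least 1 library. Positive interactions were 5.70 for Slc35d3, 5.46 for Insc, 3.88 for Tnfrsf8, 3.35 for Xist, 2.74 for Tgm3, 2.13 for Meg3, 2.12 for Dlk1, 1.49 for Cdhr1, 1.48 for Pnma2 and 1.47 for Ddx58. Next came 1.45 for Nespas, 1.40 for Ttyh1, 1.31 for Mycn, 1.26 for Pmaip1, 0.95 for Tdrd12, 0.84 for L1td1, 0.77 for Ldha, 0.74 for Sesn2, 0.65 for mt-Nd1 and 0.52 for Mbd3. After these came 0.50 for Uhrf1, 0.45 for mt-Co1 and 0.43 for Pkm. Negative interactions were -7.46 for Thbd, -7.25 for Ly6a, -7.20 for Serpinb6b, -6.85 for Msc, -6.72 for Tinagl1, -6.67 for Ism2, -5.31 for Tgm2, -5.13 for Dner, -4.94 for Col4a2 and -3.96 for Tagln. Next came -3.92 for Nid1, -3.91 for Col4a1, -2.74 for Klf4, -2.52 for Hspg2, -2.49 for Itgav, -2.06 for Id4, -1.99 for Tdrd7, -1.72 for Socs3, -1.46 for Mdm2 and -1.36 for Cdkn1a. After these came -1.27 for Cish, -0.99 for Dsg2 and -0.79 for Ei24. Fitted values of Rassf9, Insc, Slc35d3 and Msc rest on a group with 0 counts in every library, depend on the prior count and are no bounds.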

How the results depend on the processing

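The number of genes called ran from 361 to 1527 over the fits that left out 1 library, with 149 to 601 higher and 209 to 926 lower. It was 1277 in DESeq2 (708 lower), 456 in a fit of the 12 libraries alone (202 higher and 254 lower), 1912 with line A2 left out altogether (988 and 924) and 445 with a minimum absolute log2 fold change of 1 (137 and 308). Another normalization, no filter on low counts and limma-trend stayed within 1.5 times of 847. No gene called in both the edgeR fit of all 18 libraries and another fit had opposite signs.

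The replicate block of all names within genotype called 1457 genes (722 higher and 735 lower), that of KO lines alone 2052 (991 and 1061), and the KO line pairing without the EpiLC library labelled KO A2, added after the data were seen, 2497 (1363 and 1134). Same-named KO libraries deviated together, and WT libraries of the same number did not (r from -0.0231 to -0.0015).

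Genes that were not called with all libraries turned sign as follows, and the cause was not tested. Over the fits that left out 1 library, Nanog ran from -1.36 to 0.051, Esrrb from -1.89 to 0.14, Otx2 from -0.0076 to 0.78, Prdm1 from -0.79 to 0.29, Prdm14 from -1.39 to 0.047, Tfap2c from -1.51 to 0.18 and Vim from -1.06 to 1.11. Each upper end, other than that of Otx2, came without the EpiLC library labelled KO A2, and Otx2 had -0.0022 without it. Without any library of line A2 values were 0.36 for Esrrb, 0.45 for Prdm1, 0.043 for Prdm14, 0.27 for Tfap2c and 0.96 for Vim. With the KO line block and without that EpiLC library they were 0.30 for Esrrb, -0.0026 for Otx2, 0.36 for Prdm1, 0.079 for Prdm14, 0.25 for Tfap2c and 0.92 for Vim. With limma-trend Nanos3 had 1.16 and Vim 0.043.

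Of the 82 named genes called, 34 were no longer called in the fit of 12 libraries alone, 23 without the filter, 12 in limma-trend and 9 with the block of all names. In DESeq2 79 were called and 1 was not, and the others had no adjusted p there. With 3 libraries a group and a median of 4177549 counts each, genes of few counts were tested with little precision.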
